A study of Bos taurus with 33 samples.

Results

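Oocyte pools from small follicles were compared with oocyte pools from large follicles, both aspirated from beef cows after a gonadotropin surge that had been induced by injection. The members are the 12 oocyte libraries that the labels place in these groups, 6 small and 6 large, out of 33 libraries in the series. Each library was made from 4 pooled oocytes. Small follicles measured at most 11.7 mm on day 0 and large follicles at least 12.7 mm. The cows were adult, suckled Hereford-Angus crosses with no genetic alteration, and the cows of both groups received gonadotropin releasing hormone (GnRH) on day -9, prostaglandin F2α on day -2 and a second GnRH injection on day 0. None of these cows had shown estrus. Collection took place about 20 h after that injection by one label and about 23 h by another. A pool blends 4 oocytes, so variation between single oocytes was not measured, and the labels do not say whether pools were matched for cow, day or operator. The 4 oocyte pools of the spontaneous classification (follicles of 11.7 to 14.0 mm, cows in estrus, no second GnRH injection) entered no test here, and their values are given as a reference.

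The question was whether the transcripts stored in the oocyte differ when the surge is given to a smaller rather than a larger dominant follicle. A growing oocyte transcribes and stores messenger RNA while it sits inside its follicle, joined to its cumulus cells (CC) by fine cell processes. Transcription largely stops before ovulation. From then until the embryo switches on its own genes, meiosis, fertilization and the first cleavages run on the stored transcripts, which are polyadenylated, translated and destroyed on a schedule. The surge restarts meiosis, so an oocyte collected after it has left the resting stage and holds a store to which it can add little.

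The libraries were made from amplified cDNA, and the deposited values are counts scaled to a common total of reads on genes (CPM). Between 7664375 and 13525662 reads fell on genes in the small pools and between 10829481 and 14118707 in the large pools. A transcript without a read could have had up to 3 reads, worth 0.212 to 0.391 CPM (counting error only). Of 16279 genes listed, 10076 reached 5 CPM in at least 4 of the 16 oocyte pools and were tested. Differences are the mean of log2(CPM + 1) in large pools minus that in small pools, tested with limma, and the log scale understates the fold of transcripts with few CPM. A transcript was called when its nominal p was 0.01 or less with all 12 pools and again, in the same direction, without small replicate 3, whose mitochondrial share stands apart.

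Oocyte transcripts were abundant in every pool, beside some of cumulus type. All 14 oocyte markers were retained, and together they held 13837 to 18015 CPM in small pools and 13922 to 16897 CPM in large pools. The cumulus and granulosa markers were present at a lower and uneven level. The 15 markers of that list summed to 1061 to 4351 CPM in small pools (median 1796) and 847 to 4095 CPM in large pools (median 1587), with the highest sums in small replicate 3 and large replicate 6. The same 15 summed to 11479 to 32740 CPM in the CC pools, a table scaled separately. VCAN, a matrix proteoglycan of expanding cumulus, made up most of the sum in the oocyte pools at its highest value of 3427 CPM. STAR, HAS2 and PTGS2 reached 440, 248 and 291 CPM. The 6 markers that did not pass the filter were lower: LHCGR, the receptor for luteinizing hormone, FOXL2 and LOX reached at most 0.0845, 0.391 and 1.79 CPM, and FSHR, CYP11A1 and CYP19A1, the aromatase of estrogen synthesis, at most 3.89, 7.38 and 9.16 CPM. Red blood cell markers reached a sum of 0.568 CPM at most, and the sums of white blood cell, endothelial, and theca and stroma markers overlapped between the groups.

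Among the 12 pools, 2 stood apart in several measures. Mitochondrially encoded transcripts held 4.76% of the CPM in small replicate 3 against 1.22 to 1.81% in the other small pools, and 2.55% in large replicate 6 against 1.08 to 1.61% in the other large pools. Small replicate 3 was also the shallowest library. Small replicates 4 and 6 lay at the other end of the first principal component (15.4% of the variance), at -68.9 and -45.4 against 32.5 for small replicate 3 and 53.0 for large replicate 6, and without small replicate 4 there were 56 calls, 36 of them higher in large pools. The number of transcripts at 5 CPM or more was 8289 to 9363 in small pools and 8745 to 9039 in large pools, and no difference in the group means was detected (exact permutation test, two-sided, p = 0.281). Small replicate 3 was the pool with 9363 and small replicate 4 the pool with 8289. Without small replicate 3 the small pools had 8289 to 8761, nearly all below the large pools (exact permutation p = 0.00866), which gave an adjusted p of 0.0779 over the 9 pool-level measures compared.

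**Figure D1:**
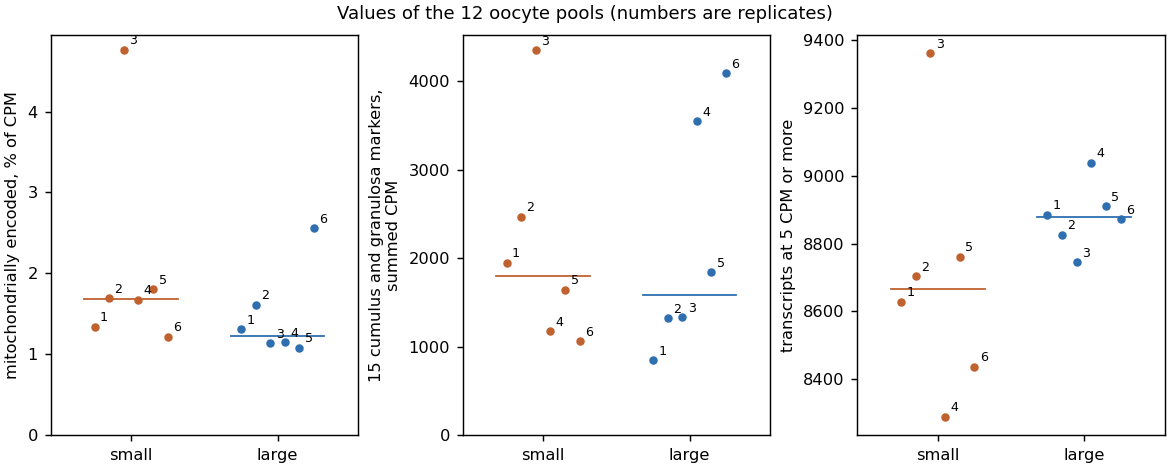
Share of CPM from mitochondrially encoded transcripts (left, percent), summed CPM of the 15 cumulus and granulosa markers (middle) and number of transcripts at 5 CPM or more (right) in the 12 oocyte pools, with replicate numbers beside the points and a line at each group's median; the right axis does not start at 0. Small replicate 3 is highest in its group in all 3 panels, and large replicate 6 is highest in its group in the first and second.

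The abundant transcripts for which oocytes are known differed little between small and large follicles. BMP15 and GDF9, the growth factors by which the oocyte directs its cumulus cells, the zona genes ZP2, ZP3 and ZP4, the meiotic regulators AURKA, CCNB1, PTTG1 and WEE2 and the deadenylation adaptor BTG4 had log2 differences between -0.20 and 0.06, and none was called. Differences that passed the threshold were few, most of them in transcripts of low abundance. More were higher in large pools in limma, but not in the edgeR and DESeq2 tests.

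Of the 10076 transcripts, 66 were called (0.655%), 45 higher in large pools (0.447%) and 21 higher in small pools (0.208%). With all 12 pools alone, 90 (0.893%) had passed. A cutoff of 0.01 lets through a share of about 0.01 of transcripts when no group difference exists, so 0.893% was no excess. The small and large pools did not overlap for 26 transcripts (0.258%), 13 higher in large and 13 higher in small (0.129% each), and 14 of the 26 were called. A share of 0.00216 of transcripts is expected to be without overlap where nothing differs, so the share found lies near it. None had a Benjamini-Hochberg adjusted p under 0.05 in limma (smallest 0.209), and 414 (4.11%) had an unadjusted p under 0.05. DESeq2 on the recovered reads gave 2 transcripts with an adjusted p under 0.05, SP2 and ZHX1. The 4.11% in limma likewise lay below the share of about 0.05 that its cutoff gives without any group difference. At both cutoffs limma thus passed no more transcripts than such a case would supply. Each call below is therefore a nominal one. The split by direction depended on the method: 68.2% of the calls were higher in large pools in limma, 56.3% after median-of-ratios scaling, 47.1% in edgeR's quasi-likelihood test and 46.5% in DESeq2. Over all transcripts tested, 55.5% had a log2 difference above 0 and the median was 0.05.

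Many calls higher in large pools were in transcripts that were scarce in small pools. The filter accepts any 4 oocyte pools, so a transcript can enter it through the group where it is high. Of the 10076 tested, 82 reached 5 CPM in no small pool and 65 in no large pool. A low level in the other group is thus no separate finding. Their median level was 4.99 CPM in small and 17.4 CPM in large pools, and 23 of the 45 averaged under 5 CPM in small pools. Their log2 differences ran from 0.32 to 2.53 (median 1.75). The calls higher in small pools were more abundant, at a median of 37.3 CPM in small and 12.4 CPM in large pools, with differences of 0.44 to 3.04 on the log2 scale (median 1.38).

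**Figure D2:**
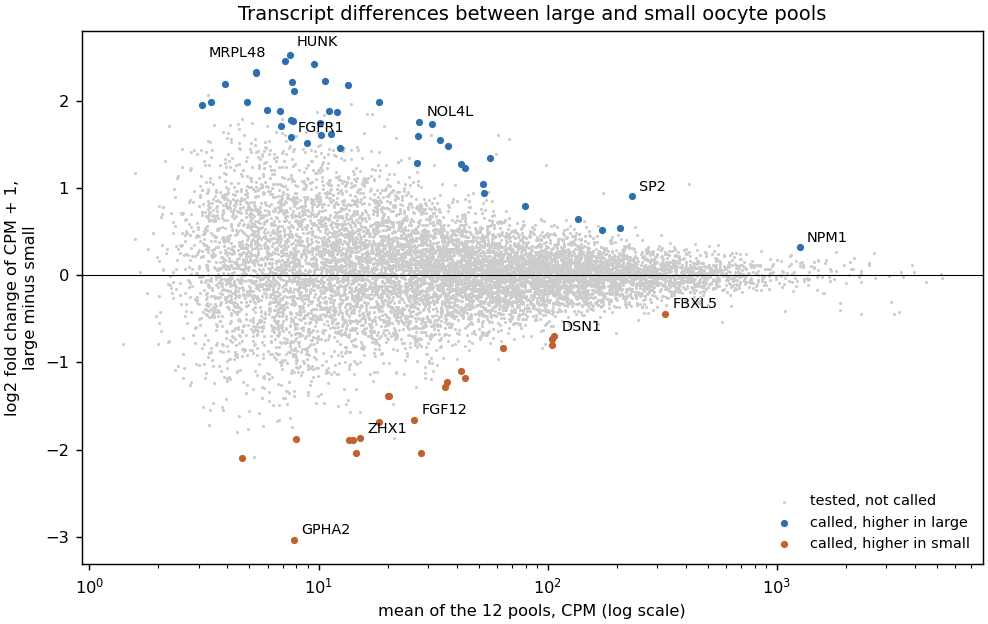
Log2 difference of CPM + 1 (large minus small, vertical axis) against the mean CPM of the 12 pools (horizontal, log scale) for every transcript reported; called transcripts are in blue (higher in large) or orange (higher in small). The spread of the differences narrows as the level rises, and the calls run from NPM1 at a difference of 0.32 to GPHA2 at -3.04.

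Regulators of transcription were called in both directions, among them SP2, ZNF341 and RCOR2 higher in large pools and ZHX1, ZBTB6 and MSL1 higher in small pools. SP2 (ENSBTAG00000013740), a zinc finger factor of the Sp family that binds GC-rich and CCAAT-containing promoters, was at 119 to 248 CPM in small pools (median 146) and 257 to 343 CPM in large pools (median 304). Every large pool lay above every small pool. The log2 difference was 0.91 (SE 0.179, limma adjusted p = 0.209), and the exact permutation p of the mean CPM was 0.00216, the smallest that 6 against 6 pools allow. The named calls had passed a threshold on these same pools, so their permutation p and lack of overlap add no separate evidence. The spontaneous pools spread over the whole range, from 117 to 365 CPM.

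ZNF341 (ENSBTAG00000039313), a zinc finger transcription factor, ran from 4.25 to 45.6 CPM in small pools (median 21.1) and from 31.9 to 65.4 CPM in large pools (median 54.4). One small pool, replicate 1, reached into the range of the large pools. The log2 difference was 1.48 (SE 0.418, exact permutation p = 0.00866). RCOR2 (ENSBTAG00000007827), a corepressor that works with histone demethylases and deacetylases, was at 4.38 to 31.7 CPM in small pools (median 12.9) and 29.1 to 47.8 CPM in large pools (median 38.7). Its small pools fell into a lower and a higher set of 3, and the higher set touched the large pools. The log2 difference was 1.60 (SE 0.474, exact permutation p = 0.0108), and RCOR2 was not called by either edgeR test or by DESeq2. NOL4L (ENSBTAG00000008348) was at 3.25 to 21.9 CPM in small pools (median 11.5) and 23.2 to 81 CPM in large pools (median 34.4). The groups did not overlap, and the difference was 1.77 (SE 0.438, exact permutation p = 0.00216). The 4 spontaneous pools, at 26.2 to 58.6 CPM, all lay above the small pools.

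Transcripts that act on RNA, signalling and the cell's structure followed. EDC3 (ENSBTAG00000007308), which promotes the decapping and decay of messenger RNA, was at 0 to 9.52 CPM in small pools (median 3.81) and 8.73 to 36.8 CPM in large pools (median 21.9). Only the lowest large pool reached the range of the small pools, and EDC3 was in none of the lists described below. The log2 difference was 2.19 (SE 0.597, exact permutation p = 0.00649). HUNK (ENSBTAG00000020762), a serine/threonine kinase of the AMPK-related family, had the largest difference of these, 2.53 (SE 0.670), from a median of 0.668 CPM in small to 11.2 CPM in large pools. Small replicate 3, at 7.05 CPM, was far above the other small pools, whose values were 0 to 1.47 CPM. ASB16 (ENSBTAG00000019658), a substrate-binding subunit of ubiquitin ligases, was at 0.649 to 6.46 CPM in small pools (median 1.42) and 7.20 to 33.5 CPM in large pools (median 8.88), without overlap (log2 difference 2.12, SE 0.599). Its spontaneous pools, at 1.56 to 4.12 CPM, lay in the range of the small pools.

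MFAP3 (ENSBTAG00000017079), a microfibril-associated protein, was at 1.38 to 21.3 CPM in small pools (median 5.96) and 11 to 53.3 CPM in large pools (median 26.9), so that its mean was 3.86 times as high in large pools (SE of the log2 difference 0.567, exact permutation p = 0.0173). TGFB1I1 (ENSBTAG00000002391), an adaptor of focal adhesions, was at 0 to 2.68 CPM in small pools (median 0.615) and 1.41 to 19.4 CPM in large pools (median 6.75), with a difference of 2.33 (SE 0.676, exact permutation p = 0.00649). The highest MFAP3 values of the groups were those of small replicate 3 and large replicate 6, the pools with the highest cumulus marker sums, and large replicate 6 also had the highest TGFB1I1 value. Both transcripts are more abundant in the CC pools, where MFAP3 averaged 102 CPM in small and 105 CPM in large pools and TGFB1I1 29.8 and 28.4 CPM. The part of cumulus RNA in these differences was not tested. Without small replicate 3 and large replicate 6 both stayed under the threshold and on the same side, which does not measure that part.

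NPM1 (ENSBTAG00000015316), nucleophosmin, a chaperone of histones and ribosomal subunits in the nucleolus, was the most abundant call. It was at 863 to 1263 CPM in small pools (median 1200) and 1247 to 1504 CPM in large pools (median 1400). The ranges met at their edges, and the difference was small, 0.32 on the log2 scale (SE 0.109, exact permutation p = 0.00649). NPM1 was not called with no filter, after median-of-ratios scaling, in either edgeR test or in DESeq2, nor in 6 of the 12 fits that left out a pool. For named transcripts, such fits were judged by their own p alone, so further calls may be lost without small replicate 3. CALR (ENSBTAG00000015114), calreticulin, a calcium-binding chaperone of the endoplasmic reticulum that was named after its values were seen, was at 30.9 to 121 CPM in small pools (median 52.6) and 74.1 to 138 CPM in large pools (median 88.2). Small replicate 3 held the highest small value. The difference was 0.80 (SE 0.284, exact permutation p = 0.0541), and the call was lost in the same 5 settings and in 8 of the 12 fits that left out a pool.

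The 12 named transcripts higher in small pools had varied roles. GPHA2 (ENSBTAG00000007063), the alpha subunit of the glycoprotein hormone thyrostimulin, showed the widest difference of all calls. It was at 5.22 to 38.8 CPM in small pools (median 10.7) and 0 to 4.06 CPM in large pools (median 0.314). No large pool reached the lowest small pool, and 2 large pools had no read. The log2 difference was -3.04 (SE 0.639, limma adjusted p = 0.265, exact permutation p = 0.00216). The spontaneous pools, at 0.390 to 5.77 CPM, lay mostly with the large pools.

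FGF12 (ENSBTAG00000012413), a fibroblast growth factor homologue that stays inside the cell and binds sodium channels, was at 21.5 to 65.2 CPM in small pools (median 41.6) and 4.65 to 20.6 CPM in large pools (median 12.1). The groups did not overlap. The difference was -1.66 (SE 0.423). FGFR1 (ENSBTAG00000015457), a receptor for secreted fibroblast growth factors, went the other way, at 1.18 to 4.66 CPM in small pools (median 3.97) and 8.73 to 17.5 CPM in large pools (median 9.87), again without overlap (log2 difference 1.59, SE 0.541, exact permutation p = 0.00216). FGFR1 lost its call in edgeR's quasi-likelihood test, with the replicate number as a block, without small replicate 3 and large replicate 6 together, and in 5 fits that left out a pool. Of the 17 ligand and receptor genes of the family that matched, 11 did not pass the filter on low values, and the other members that did, among them FGF16 and FGF2, had values of 38.0 ± 14.6 against 47.3 ± 10.1 CPM and 29.3 ± 10.5 against 31.2 ± 15.8 CPM (SD, n = 6 each) and were not called.

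ZHX1 (ENSBTAG00000015334), a zinc finger and homeobox repressor of transcription, was at 10.9 to 41.5 CPM in small pools (median 21.3) and 2.62 to 8.40 CPM in large pools (median 5.71), without overlap (log2 difference -1.87, SE 0.499, exact permutation p = 0.00216). DSN1 (ENSBTAG00000013915), a subunit of the MIS12 complex that anchors kinetochores to the centromere, was at 113 to 167 CPM in small pools (median 123) and 62.5 to 102 CPM in large pools (median 82). Every small pool lay above every large pool, and the difference was -0.70 (SE 0.201, exact permutation p = 0.00216). ZBTB6 (ENSBTAG00000039815), a zinc finger protein, was at 28.1 to 62.1 CPM against 9.97 to 47 CPM (difference -1.28, SE 0.377), and MSL1 (ENSBTAG00000010375), the scaffold of a histone acetyltransferase complex, was at 30.3 to 79.5 CPM against 17.2 to 47.6 CPM (difference -1.10, SE 0.336). In both, 1 large pool entered the range of the small pools.

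Genes of protein synthesis, amino acid supply and growth control were also among the calls higher in small pools. YARS (ENSBTAG00000018065), which charges tyrosine onto its transfer RNA, was at 1.90 to 17.9 CPM in small pools (median 7.21) and 0 to 2.99 CPM in large pools (median 0.722), with a difference of -2.10 (SE 0.651, exact permutation p = 0.00433). SARS (ENSBTAG00000012962), the seryl counterpart, named after its values were seen, was called in the other direction, at 0.0811 to 5.45 CPM in small pools (median 1.15) and 1.98 to 18.4 CPM in large pools (median 9.52). SARS lost its call in either edgeR test, in DESeq2, with no filter, with the replicate block, without small replicate 3 and large replicate 6 together, and in 8 of the 12 fits that left out a pool. SLC1A4 (ENSBTAG00000007763), an exchanger of neutral amino acids, was at 32.5 to 92.9 CPM against 7.44 to 37.5 CPM (difference -1.18, SE 0.386). TSC2 (ENSBTAG00000020617), which restrains the growth kinase mTOR, was at 92.9 to 201 CPM against 55.2 to 112 CPM (difference -0.73, SE 0.237).

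FBXL5 (ENSBTAG00000021214), the iron-sensing subunit of a ubiquitin ligase, was the most abundant call higher in small pools, at 285 to 436 CPM (median 374) against 245 to 317 CPM (median 270) in large pools. The lowest small pool lay below the 2 highest large pools, and the difference was -0.44 (SE 0.141, exact permutation p = 0.00649). DAB2 (ENSBTAG00000016152), an endocytic adaptor, was steady in small pools at 27.4 to 51.8 CPM and ranged from 0 to 70.8 CPM in large pools. Large replicate 5 held that highest value, above all small pools. DAB2 was called on the log scale (difference -2.04, SE 0.640), but no difference in its mean CPM was detected (exact permutation p = 0.132), and it was not called in either edgeR test, with no filter, with all 3 classifications in the fit, or without small replicate 3 and large replicate 6.

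**Figure D3:**
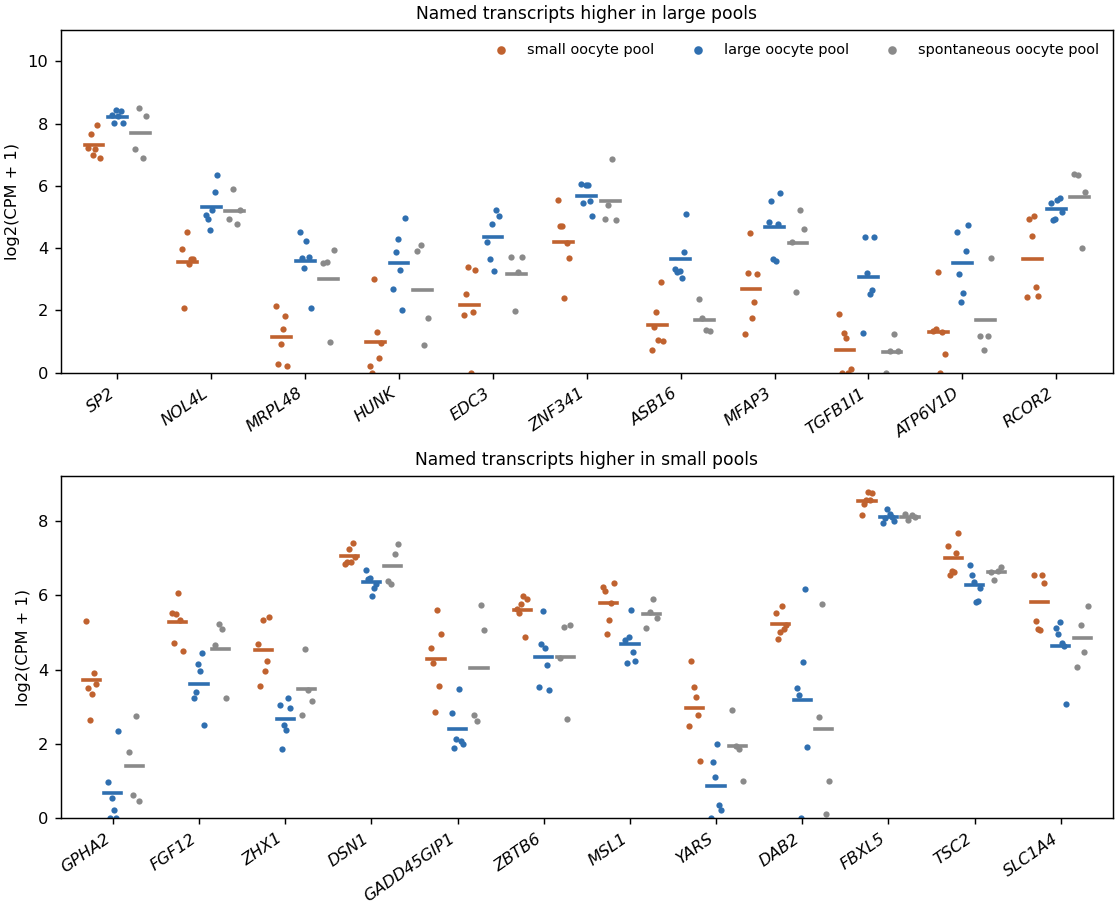
Level in log2(CPM + 1) of the named transcripts called higher in large pools (top) and higher in small pools (bottom), with a point for each of the 6 small, 6 large and 4 spontaneous oocyte pools and a line at each group mean. FGFR1 and the other calls named for their list, level or after their values were seen are not drawn. The groups are separate for SP2, NOL4L and ASB16 in the top panel and for GPHA2, FGF12, ZHX1 and DSN1 in the bottom panel.

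Calls touched energy metabolism in single genes. With 0.655% of all transcripts called, lists of this size would mostly hold few calls or none, so the counts below say little about whole complexes. MRPL48 (ENSBTAG00000008347), a protein of the large mitochondrial ribosomal subunit, was at 0.172 to 3.41 CPM in small pools (median 1.27) and 3.21 to 22.2 CPM in large pools (median 12), and only the lowest large pool reached the small ones (log2 difference 2.46, SE 0.619). GADD45GIP1 (ENSBTAG00000015117), also a protein of the large mitochondrial ribosomal subunit, was called in the other direction, at 6.26 to 47.5 CPM in small pools (median 20) and 2.69 to 10 CPM in large pools (median 3.29), with a difference of -1.90 (SE 0.550, exact permutation p = 0.00433). Of the 72 retained transcripts named MRPL or MRPS, 1 was called, 36 had a difference above 0 and the median was 0.01. The 4 most abundant, MRPL18, MRPL37, MRPS31 and MRPL47, had differences of -0.05 to 0.17.

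PDHB (ENSBTAG00000021724), a subunit of pyruvate dehydrogenase, which feeds pyruvate to the citric acid cycle, was at 0.164 to 14 CPM in small pools (median 3.31) and 7.86 to 36.9 CPM in large pools (median 13.2). Small replicates 1 and 3 lay within the range of the large pools. The difference was 1.88 (SE 0.621, exact permutation p = 0.0195), and the call was lost in either edgeR test, in DESeq2, with no filter, with the replicate block and in 5 fits that left out a pool. PDHB averaged 102 to 112 CPM in the CC groups, and the part of cumulus RNA was not tested. PDHB was 1 of 28 retained pyruvate and citric acid cycle genes, whose median difference was -0.13. CS, citrate synthase, the most abundant of them, was at 1258 ± 210 CPM in small and 1153 ± 159 CPM in large pools (SD, n = 6 each). LDHB, which converts lactate and pyruvate, was at 55.2 ± 15.9 and 45.1 ± 14.7 CPM (log2 difference -0.29, SE 0.290) and was not called.

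ATP6V1D (ENSBTAG00000016309), a subunit of the rotating stalk of the V-ATPase, the proton pump of lysosomes and vesicles, was at 0 to 8.35 CPM in small pools (median 1.51) and 3.81 to 26 CPM in large pools (median 11). Small replicate 3 and large replicate 6 held the highest values of their groups, and 3 of the large pools were below small replicate 3. ATP6V1D averaged 71.2 CPM in either CC group, and the part of cumulus RNA was not tested. Of the 16 named calls higher in large pools, 5 had their highest values in these pools (NOL4L, HUNK, MFAP3, ATP6V1D and PDHB), as did 0 of the 12 higher in small pools. The share of all transcripts with this pattern was not counted, so the contrast is not read as a trait of these calls. Over all transcripts, large replicate 6 was the highest of the 12 pools for 10.8% and small replicate 3 for 7.2%. All 5 were still called without both pools. A high value in small replicate 3 runs against these 5 calls, so that outcome does not measure the part of cumulus RNA. The ATP6V1D difference was 2.22 (SE 0.656, exact permutation p = 0.0173), and edgeR's quasi-likelihood test did not call it. It was the only call among 19 retained V-ATPase subunits, whose median difference was 0.26 (0.05 without small replicate 4). The abundant subunits ATP6V0C, ATP6V0A1, ATP6V1C1 and ATP6V1B2 had differences of -0.32 to 0.10.

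None of the nuclear genes of the respiratory chain was called, against 0.655% of all transcripts. This covers 35 subunits of complex I (median difference 0.04), 26 of complexes II to IV with cytochrome c (0.07) and 17 of ATP synthase (0.03). ATP5G2 of ATP synthase had pools without overlap and is described in the closing section. COX5A (ENSBTAG00000017267), a subunit of cytochrome c oxidase, was at 89.6 to 180 CPM in small pools (median 139) and 167 to 268 CPM in large pools (median 187). The 2 highest small pools reached the large ones, and the log2 difference was 0.57 (SE 0.197, exact permutation p = 0.0108). It passed the nominal threshold with all 12 pools (limma adjusted p = 0.997) but not without small replicate 3, and so was not called. The 22 glycolytic enzymes listed had 15 retained members and no call, with a median difference of 0.22. LDHA, GAPDH and GPI, the most abundant, had differences of -0.20, -0.01 and 0.19.

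The 10 mitochondrially encoded transcripts shared a direction, with all 10 lower in large pools and a median difference of -0.42, but none was called. COX1, for a subunit of cytochrome c oxidase, was at 2320 to 8040 CPM in small pools (median 3240) and 1842 to 4423 CPM in large pools (median 2394), and the highest value of each group was that of small replicate 3 and large replicate 6. ND5, a subunit of complex I, was at 1434 to 5595 CPM against 1461 to 3003 CPM. COX1 and ND5 had an unadjusted p under 0.05 with all pools. Without small replicate 3 the number was 0 of 10, the median difference was -0.16 and 1 of the 10 lay above 0, with large replicate 6 still at 2.55%. No difference in the share of CPM held by these transcripts was detected with all pools (exact permutation p = 0.411). Without small replicate 3 and large replicate 6, an omission chosen after seeing the data, the mean shares were 1.54% in small and 1.25% in large pools. The exact permutation p was then 0.0794 (adjusted p 0.357 over the 9 pool-level measures).

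**Figure D4:**
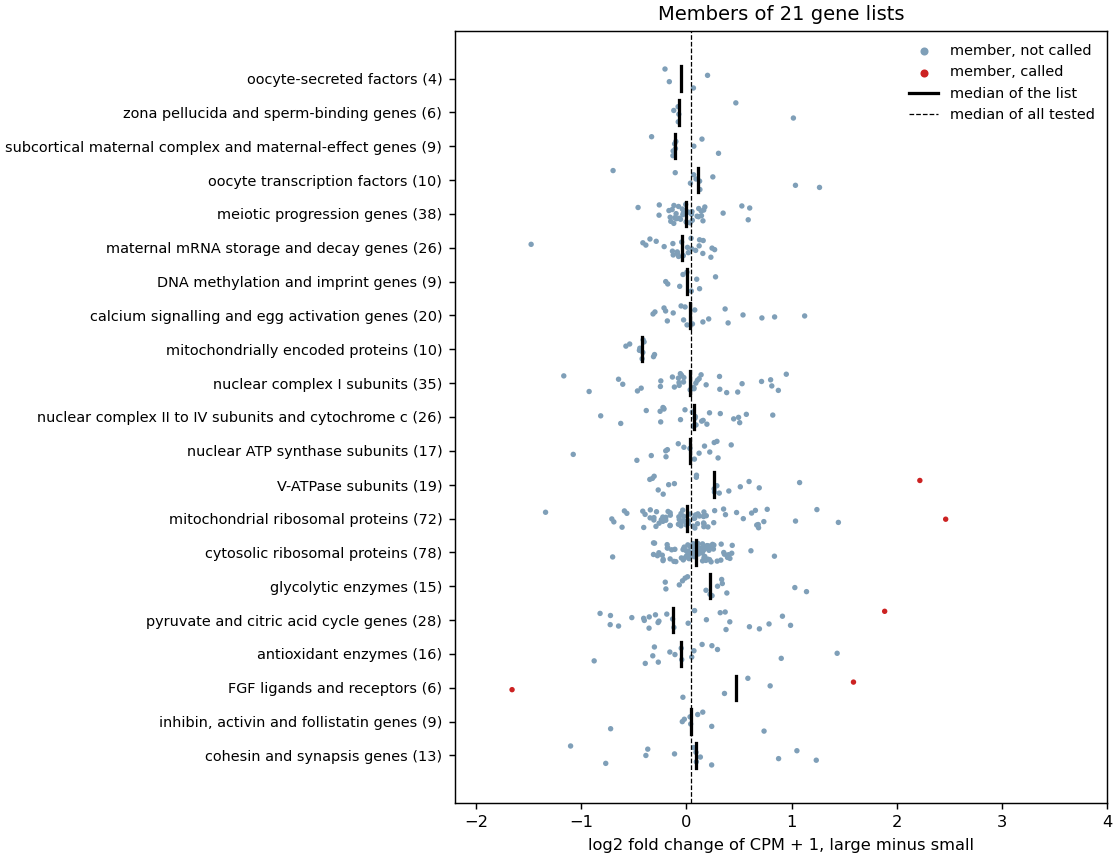
Log2 difference of CPM + 1 (large minus small) of each retained member of 21 gene lists, with the number of retained members in brackets, a bar at the list's median, red points for called members and a dashed line at the median of all transcripts tested (0.05). List medians lie near the dashed line, apart from the mitochondrially encoded proteins at -0.42 and the 6 FGF genes at 0.47, and 5 points are red.

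Over the 21 lists, 466 different transcripts were retained and 5 were called, 1.07% against 0.655% of all transcripts: MRPL48, ATP6V1D, PDHB and FGFR1 higher in large pools and FGF12 higher in small pools. No member was called in the lists of oocyte-secreted factors, zona and sperm-binding genes, subcortical maternal complex, oocyte transcription factors, meiotic progression, messenger RNA storage and decay, DNA methylation, calcium signalling, cytosolic ribosomal proteins, antioxidant enzymes, inhibins and activins, or cohesin and synapsis.

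BMP15 (ENSBTAG00000045782) was at 1363 to 2034 CPM in small pools (median 1654) and 1283 to 1638 CPM in large pools (median 1499). The ranges overlapped. The difference was -0.20 (95% interval -0.42 to 0.01, exact permutation p = 0.0887). Without small replicate 3, the lowest small pool, it was -0.27 (exact permutation p = 0.0216), still short of the threshold. GDF9 was at 735 to 1045 CPM (median 930) against 696 to 984 CPM (median 778), a difference of -0.16 (95% interval -0.40 to 0.08). BMP6 and BMP4 were lower and more variable, at 62.1 ± 44.7 against 63.5 ± 18.8 CPM and 39.0 ± 30.2 against 46.3 ± 43.8 CPM (SD, n = 6 each).

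The zona pellucida proteins coat the oocyte and bind sperm. ZP2 was at 4580 ± 715 CPM in small and 4318 ± 464 CPM in large pools, ZP4 at 789 ± 146 and 751 ± 155 CPM, and ZP3 at 695 ± 95.9 and 682 ± 210 CPM (SD, n = 6 each). The 95% intervals of all 3 lay within 0.39 of 0 on the log2 scale. Among the maternal-effect genes, which the early embryo needs, NLRP9 was at 1098 ± 175 and 999 ± 119 CPM, ZAR1L at 329 ± 61.3 and 312 ± 83.9 CPM and NPM2, the nucleoplasmin of sperm chromatin remodelling, at 279 ± 64.0 and 227 ± 81.8 CPM. All 9 members of that list had 95% intervals within 1 of 0.

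Among the 10 retained oocyte transcription factors, which switch on the oocyte's own genes or keep its germline identity, SALL4 was at 170 ± 13.8 CPM in small and 187 ± 24.7 CPM in large pools, FOXO3 at 127 ± 27.3 and 140 ± 50.1 CPM, LHX8 at 132 ± 20.0 and 123 ± 22.3 CPM and NOBOX at 109 ± 43.2 and 115 ± 29.9 CPM (SD, n = 6 each). TAF4B (ENSBTAG00000004257), a gonadal subunit of the general transcription factor TFIID that was named after its values were seen, was at 7.58 to 51.3 CPM in small pools (median 12.3) and 26.1 to 86.6 CPM in large pools (median 38.0). The groups overlapped. The log2 difference was 1.26 (SE 0.432, limma adjusted p = 0.997), and it missed the threshold without small replicate 3, at a difference of 1.21.

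Meiosis depends on the kinase CDK1, its cyclins and the spindle. AURKA, a kinase of spindle assembly, was at 5172 ± 522 CPM in small and 5232 ± 505 CPM in large pools, and CCNB1, cyclin B1, at 1791 ± 253 and 1843 ± 107 CPM (SD, n = 6 each). PTTG1, the securin that holds separase in check, was at 2691 ± 403 and 2645 ± 453 CPM, and WEE2, the oocyte kinase that keeps CDK1 inactive, at 2294 ± 471 and 2355 ± 270 CPM. Their differences ran from -0.03 to 0.06, and 34 of the 38 retained members had 95% intervals within 1 of 0. The called kinetochore subunit DSN1 was in none of the lists.

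Of the 26 messenger RNA storage and decay genes, BTG4, an adaptor that brings maternal transcripts to the deadenylase, was at 3914 ± 624 and 4003 ± 377 CPM (SD, n = 6 each). CNOT1, the scaffold of that deadenylase, was at 706 ± 156 and 551 ± 101 CPM, a difference of -0.35 (SE 0.142) that did not meet the threshold. DPPA3, which protects maternal DNA methylation, was at 2067 ± 349 and 2055 ± 200 CPM, and DNMT1, the maintenance methyltransferase, at 635 ± 97.8 and 687 ± 47.2 CPM. ATP2A2, the calcium pump that refills the stores used at fertilization, was at 2315 ± 296 and 2312 ± 146 CPM, and ITPR1, the release channel of those stores, at 290 ± 66.4 and 250 ± 52.9 CPM.

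**Figure D5:**
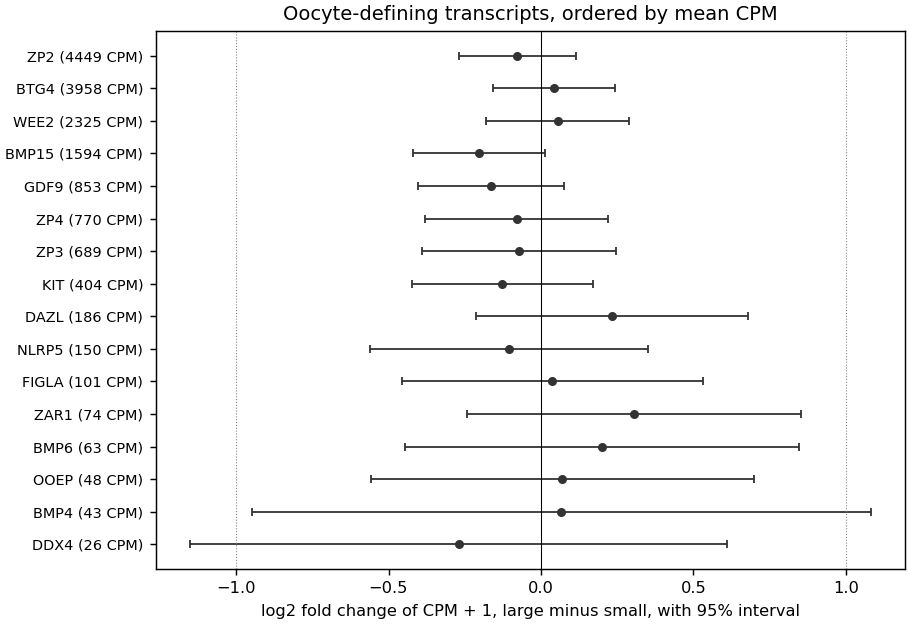
Log2 difference of CPM + 1 (large minus small) with its 95% interval from limma for the oocyte markers and oocyte-secreted factors, ordered by mean CPM, which is given beside each name; dotted lines mark 1 and -1. The intervals cross 0 in every row and widen toward the low transcripts, with BMP15 at -0.20 (-0.42 to 0.01).

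The inhibin and activin genes varied far more between pools of a group. INHA was at 4.33 to 88.7 CPM in small pools (median 26.0) and 2.45 to 138 CPM in large pools (median 31.6), and INHBA at 1.81 to 114 CPM (median 17.1) and 4.90 to 115 CPM (median 24.1). The highest values were again those of small replicate 3 and large replicate 6. Both genes are strongly expressed in CC, where INHA averaged 1921 and 1786 CPM, and neither was called in oocytes. FST, follistatin, was at 0 to 26.4 CPM and 2.12 to 18.4 CPM. INHBB reached 5 CPM in 1 of the 16 pools and was not tested.

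How small a difference could be seen depended on the level. Over all transcripts 46% had a 95% interval of the log2 difference within 1 of 0. For the 324 transcripts at 500 CPM or more the median SE was 0.124, and 99.4% had such an interval. At 100 to 500 CPM the share was 98.6% of 2151, and at 20 to 100 CPM 57.3% of 3773. At 5 to 20 CPM it was 1.04% of 2988, with a median SE of 0.608, and this range gave 30 of the 66 calls (1.004% of its transcripts). Under 5 CPM it was 0% of 840. A difference of 1 on the log2 scale was therefore within reach for the abundant oocyte transcripts and mostly not detectable in the range that supplied the most calls.

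Called transcripts were also compared with the CC of the same classifications. Of the 66, 48 were retained in CC, 0 had a limma p of 0.01 or less there (0.813% of all CC transcripts did), and the sign was the same for 18 of 30 higher in large and 9 of 18 higher in small pools (56% of all CC transcripts had a difference above 0). DSN1 came nearest among the named ones, at 8.92 CPM in small and 5.03 CPM in large CC pools. Other named calls, among them FGFR1, CALR, SARS, YARS and ZHX1, averaged more CPM in both CC groups than in either oocyte group. The part of cumulus RNA was not tested for these either. In the spontaneous oocyte pools, the median of 30 of the 44 reported calls higher in large lay between the medians of the small and large pools (68.2%), as it did for 18 of the 21 calls higher in small (85.7%). Over all transcripts the shares were 29.4% and 27.9%, although a called transcript leaves a wider gap between its medians. The spontaneous median was nearer to that of the large pools for 18 of the 44 (40.9%) and 12 of the 21 (57.1%), against 53.2% and 50.5% of all transcripts with a difference above or below 0.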

How the data were processed

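The authors trimmed single-end reads of amplified cDNA, aligned them with Hisat2 to UMD3.1, assigned them to Ensembl genes with FeatureCounts and deposited CPM, scaled separately for oocytes and CC. The kit's strand is not stated, so overlapping genes cannot be told apart. Versions are not given in the sources used here. All columns matched a labelled pool. Whole reads were recovered for 100% of the values (tolerance 0.02 reads), and no replicates agreed within sampling noise.

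Transcripts with 5 CPM or more in 4 of 16 oocyte pools were tested with limma 3.58.1 (trend, two-sided, no covariates, pseudocount 1) in R 4.3.3, with Benjamini-Hochberg adjustment, because the deposited unit is CPM. The nominal threshold of 0.01 with and without small replicate 3 follows the study. The study required it in both edgeR and DESeq2, whereas the calls here rest on limma alone. EdgeR 4.0.16 and DESeq2 1.42.0 on recovered reads, other pseudocounts, filters and scalings, a replicate block and omitted pools were alternatives. Counts of calls in an alternative kept the second pass without small replicate 3. Named transcripts were judged in each alternative by that fit alone. Figures used matplotlib 3.10.9. Fits were tested on simulated data with large changes planted only in transcripts above 20 CPM. Lower levels, which gave many of the calls, and smaller changes were not covered. That samples of a group come from different cows is given by the study, but not which cows.

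Members and gene lists were chosen with earlier results of these data known, so no list was tested. Named were the 12 calls per direction with the smallest p, called list members, transcripts the study names in this comparison, the 4 most abundant members of lists described, the most abundant call per direction, and a few chosen after their values were seen (CALR, SARS, GDF9, TAF4B and those in the closing section). Results of 1 transcript are not reported here. No genome of the build was used, so no coordinates or sequences are given.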

Additional observations from a re-analysis of the deposited data

Results flagged for a closer look

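In groups of 6 pools, a value was set apart when its gap to the nearest other pool exceeded Dixon's 95% critical value for that number, as a share of the group's range. This held for 17 of 82 groups checked. Chance gives about 1 in 20 for independent, normally distributed values. CPM need not be normal, and the groups reuse the same pools, many on transcripts called in them. The count therefore cannot be weighed against that share. Of the 17, 13 were values of small replicate 3 or large replicate 6. In small replicate 3 they were the mitochondrial share (4.76% of CPM), for which that pool had already been singled out, the reads on genes (7664375, the lowest), HUNK (7.05 CPM), MFAP3 (21.3 CPM), ATP6V1D (8.35 CPM), FST (26.4 CPM), INHA (88.7 CPM) and INHBA (114 CPM). In large replicate 6 they were the mitochondrial share (2.55% of CPM), ASB16 (33.5 CPM), GPHA2 (4.06 CPM), COX5A (268 CPM) and INHA (138 CPM). HUNK, MFAP3 and ATP6V1D are called higher in large pools, so their values in small replicate 3 run against the call. Elsewhere, GPHA2 was at 38.8 CPM and the red blood cell markers summed to 0.568 CPM in small replicate 1, MSL1 was at 47.6 CPM in large replicate 4 and DAB2 at 70.8 CPM in large replicate 5.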

How the results depend on the processing

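In 804 comparisons of named transcripts across settings, 708 kept their side of the nominal threshold, 96 no longer passed it and 0 passed it in the opposite direction. FST (-0.27 to 0.73) and INHA (-0.46 to 0.61), which were not called, changed sign between settings. DESeq2 gave the most calls, 114 against 66. Of the 66 calls, 46 were shared with DESeq2, 32 with edgeR's quasi-likelihood test and 39 with the fit with no filter. With 1 pool other than small replicate 3 left out, 34 (without small replicate 6) to 45 (without large replicate 1) were shared. Higher-in-large calls numbered 24 instead of 45 in edgeR's quasi-likelihood test. Higher-in-small calls numbered 43 instead of 21 in edgeR's likelihood ratio test, 61 in DESeq2, 41 in both of these and 34 without the requirement on small replicate 3. Transcripts with an adjusted p under 0.05 numbered 2 instead of 0 in DESeq2, and those with an unadjusted p under 0.05 were 638 instead of 414 with no filter, where 15776 were tested. With 1 pool left out, calls ranged from 48 (without large replicate 4) to 94 (without small replicate 3, a fit that asks for a single pass), higher-in-large calls from 29 (without large replicate 4) to 66, higher-in-small calls from 14 to 28, adjusted p under 0.05 from 0 to 1 (SP2, without small replicate 5), and transcripts whose pools do not overlap from 38 to 62 against 26, since fewer pools overlap less. Leaving out small replicate 3 and large replicate 6, an alternative chosen after seeing the data, gave 87 calls, of which 48 were among the 66, and 86 transcripts without overlap. It ended the calls of FGFR1, SARS, ZBTB6, YARS, DAB2 and FBXL5.

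Same-numbered small and large pools did not deviate together (correlations -0.132 to 0.0176), so no pairing by number was detected. Correlations over all transcripts cannot show that no day, operator or other batch was shared. With the replicate number as a block there were 50 calls. Small replicate 5 alone correlated best with its own number.

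Of 28 named calls, 15 kept their side of the threshold in all settings and all 28 kept their sign. Each setting was judged here by its own fit alone, without the second pass that omits small replicate 3, so the losses are the fewest possible. With that pass, leaving out large replicate 6 also ends the calls of ZBTB6, YARS, DAB2 and FBXL5. In the single fits, calls were lost without 1 pool for YARS (small 2), DAB2 (large 3), FBXL5 (small 4, small 6 or large 1), SLC1A4 (small 1, 5 or 6, or large 6), TSC2 (small 1, 5 or 6, or large 4 or 5), PDHB (small 4, 5 or 6, or large 4 or 6), FGFR1 (small 1 or 2, or large 1, 5 or 6), NPM1 (small 2 or 6, or large 1, 2, 4 or 5), CALR and SARS. Log2 differences ranged over the fits with 1 pool left out from -2.39 to -1.85 for YARS and from -0.52 to -0.39 for FBXL5. List medians moved beyond the spread in 8 of 597 comparisons, among them the maternal-effect genes (0.07 without large replicate 6) and the FGF genes (0.15 with no filter). Under 5 CPM no interval, and at 5 to 20 CPM 1.04% of intervals, lay within 1 of 0, and counting error and variation between pools were not separated there.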

Other observations

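Some calls outside the named set, chosen after their values were seen, act on ribosomes, transfer of molecules and DNA repair. NSUN5 (ENSBTAG00000017941), a methyltransferase of ribosomal RNA, was at 0.409 to 5.22 CPM in small pools (median 3.37) and 5.60 to 17.7 CPM in large pools (median 9.89), without overlap. NOL12 (ENSBTAG00000015092), a nucleolar protein of ribosome production, was at 1.86 to 13.3 CPM and 11.3 to 18.2 CPM, with a log2 difference of 1.75 (SE 0.539). SFXN1 (ENSBTAG00000014536), which carries serine into mitochondria, was at 0 to 1.30 CPM and 1.48 to 10.1 CPM. RAD51B (ENSBTAG00000018971), a protein of homologous recombination, was at 0.775 to 8.09 CPM and 8.71 to 19.3 CPM. MRAP2 (ENSBTAG00000000257), an accessory protein of melanocortin receptors, was higher in small pools, at 27.0 to 89.3 CPM against 8.81 to 36.6 CPM.

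Pools of the groups did not overlap for 26 transcripts (0.258%), 13 in each direction, and 12 of these were not called. Most of the 12 were higher in small pools (9). HADHB (ENSBTAG00000010083), a subunit of the enzyme that breaks down long fatty acids in mitochondria, was at 35.1 to 62.2 CPM in small pools and 12.3 to 31.7 CPM in large pools, a log2 difference of -0.81 (SE 0.334). ATP5G2 (ENSBTAG00000005735), a ring subunit of ATP synthase, was at 12.6 to 35.9 CPM and 4.35 to 10.3 CPM, a difference of -1.08 (SE 0.465). CAV2 (ENSBTAG00000045584), a caveolin, was at 5.97 to 13.7 CPM and 0.496 to 5.73 CPM. NAA20 (ENSBTAG00000001144), a subunit of an acetyltransferase of protein N-termini, was at 120 to 182 CPM and 97.9 to 119 CPM. CYFIP1 (ENSBTAG00000016894), which links actin assembly to control of translation, was higher in large pools, at 73.3 to 92.9 CPM against 46.9 to 68.4 CPM.

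Small pools varied more among themselves than large pools. The median SD of log2(CPM + 1) over all transcripts was 0.645 in small and 0.568 in large pools, and 0.651 in small pools without replicate 3. Small replicate 4 was the lowest of the 12 pools for 14.6% of transcripts, small replicate 6 for 12.4% and large replicate 6 for 11.2%, against 4.1% for small replicate 3. This difference in spread was not tested.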
